A study of Mus musculus with 6 samples.

Results

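AP-1 is a family of paired transcription factors built from a Jun protein and a Fos protein, and immediate early genes are those that growth factors, serum or stress switch on within minutes, without new protein synthesis. The 10 genes described here are the Jun genes Jun, Junb and Jund, the Fos genes Fos, Fosb, Fosl1 and Fosl2, the zinc finger factor Egr1, the growth regulator Myc and Ier3. They were listed by name, and a gene was measured where a row of the expression table was annotated to it alone. This held for 9 of the 10 genes, each with 1 row, out of 14860 genes tested, and Fosb was not analysed here.

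The cells were 3T3-L1 adipocytes, fat cells made from a mouse pre-adipocyte line by 7 days in an adipogenic cocktail and used at under 6 passages. Of 6 Affymetrix arrays, 3 came from adipocytes kept for 24 hours in leukemia cell conditioned media (LCM) and 3 from control adipocytes kept in regular media, as biological triplicates. The labels give LCM as RPMI1640 with 10% FBS, IL-3 and beta-mercaptoethanol in which 8093 cells, a mouse Ph+ acute lymphoblastic leukemia (ALL) line, had grown for 48 hours, whereas the methods describe media from BV173, a human ALL line. Per the labels the adipocytes themselves were kept in RPMI1640 with 10% FBS, whereas the methods name DMEM for this line. No array came from cells in unconditioned medium with IL-3 and beta-mercaptoethanol. Effects of these additives therefore cannot be told apart from products of the leukemia cells or any other difference between LCM and regular media. The cells are a single line in culture, so the arrays hold no animal-to-animal spread, and the spread between them may in part be technical.

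Values are log2 expression as the authors made it with RMA, where a difference of 1 is a change of 2-fold. Median expression was 7.66 to 7.68 in LCM arrays and 7.60 to 7.66 in control arrays. Control replicate 2 correlated with the other controls at 0.980 and 0.984 over all rows, against 0.987 between those. Correlations between LCM and control arrays ran from 0.979 to 0.989, so the controls were not closer to each other than to LCM arrays. The defining adipocyte markers were bright in all arrays, with a mean of 9 markers of 11.5 to 11.6 in LCM arrays and 11.9 to 12.1 in control arrays. Of these 9 markers, 3 fell (Retn, Adipoq and Cidec) at an adjusted p under 0.05 from limma, beside 1.97% of all genes. Only 1 of the 9 was higher in LCM. An unadjusted p under 0.05 from limma was found for 8, beside 9.25% of all genes higher and 10.3% lower. Without control replicate 2, 5 fell, beside 652 of all 14860 genes. Without any other single array, 0 or 1 fell. The summed linear signal of the 9 was 35413 to 37772 in LCM arrays and 47498 to 50266 in control arrays.

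Jun proteins pair with each other or with Fos proteins, while Fos proteins need a Jun partner to bind DNA. The pairs bind the AP-1 site TGACTCA, and the choice of partner sets which genes respond. In pre-adipocytes the family is best known for its brief burst when the adipogenic cocktail is added. After a burst, Fos messenger RNA is lost quickly, whereas the Fos-related genes Fosl1 and Fosl2 are known for later and longer expression. The arrays were made after 24 hours, and no earlier time was measured.

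Fosl2 was the member of the family whose expression rose in LCM. Fosl2, which encodes the Fos-related protein Fra-2, had log2 values of 9.97, 9.97 and 10.19 in LCM arrays and 9.20, 9.10 and 9.19 in control arrays (row 6929719). The groups were well apart, with a gap larger than the spread within either. Expression was 1.84-fold higher in LCM (log2 fold change 0.88, standard error 0.09, 95% interval 0.68 to 1.08, adjusted p = 0.00665 from limma, n = 3 per group). Fosl2 ranked 29th by p among the 14860 genes and 51st by the size of the rise. Its adjusted p lay between 0.00668 and 0.0406 when any single array was left out. An array measures the RNA of a whole culture, so more RNA per cell and more cells of a kind that expresses a gene cannot be told apart.

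Of the 9 measured members, 1 rose, 0 fell and 8 did not pass an adjusted p under 0.05 from limma. Over all genes tested, 341 (2.29%) rose and 292 (1.97%) fell. After the arrays were brought to a common median, 232 rose and 408 fell, and Fosl2 still rose (log2 fold change 0.83, adjusted p = 0.00825). At an unadjusted p under 0.05, Fosl2, Ier3 and Jun were higher and Fosl1 lower in LCM, beside 9.25% of all genes higher and 10.3% lower at that threshold. The methods' t-test in unpaired form called the same 4 genes without adjustment, beside 8.26% of all genes higher and 9.26% lower. Its paired form called Fosl2 alone, beside 5.98% higher and 5.87% lower. The median log2 fold change was 0.17 over the 9 members and -0.03 over all genes. All LCM values lay above all control values for 4 members (Fosl2, Ier3, Jun and Jund) and below them for 1 (Fosl1), whereas the groups overlapped for the other 4. Over all genes, 12.8% had every LCM value above every control value and 14.7% had every LCM value below. With 3 arrays against 3, the smallest two-sided p of an exact permutation test is 0.1, so such a test of a single gene cannot pass. Fold changes of the members ran from -0.27 for Egr1 to 0.88 for Fosl2 on the log2 scale.

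**Figure D1:**
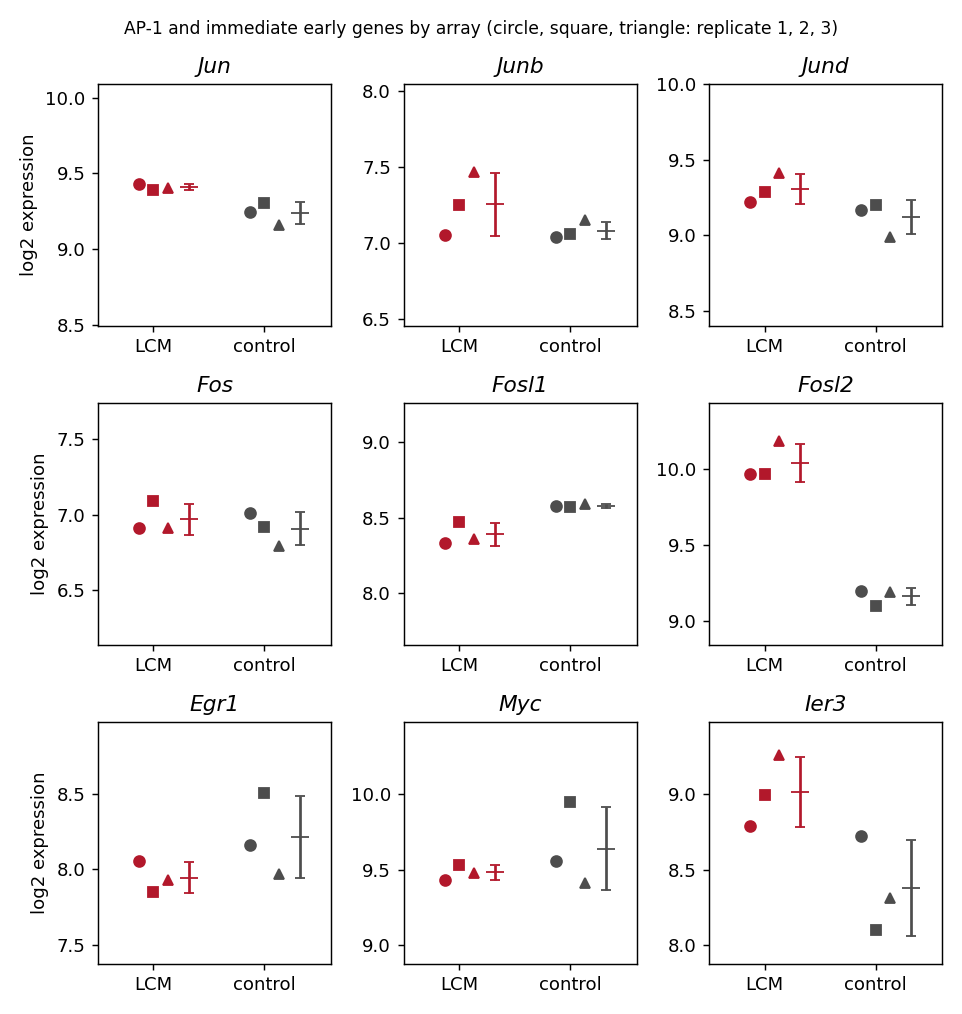
Log2 expression (y axis, all panels spanning the same range of log2 units) of the 9 measured genes in each LCM and control array, with the mean and SD of the 3 arrays beside the points. Fosl2 shows the widest gap between groups, with LCM arrays from 9.97 to 10.19 and control arrays from 9.10 to 9.20.

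The sequences before the start sites are shown for Fosl2, the gene that rose, and for Jun, Fos and Ier3 for comparison. Each is the 250 bases before the RefSeq start on the gene's strand, in GRCm38.p6, and capitals mark a match to a searched motif. They lie at chr5:32136222-32136471 (Fosl2, plus strand), chr4:95052223-95052472 (Jun, minus strand), chr12:85473640-85473889 (Fos, plus strand) and chr17:35821463-35821712 (Ier3, plus strand).
Fosl2: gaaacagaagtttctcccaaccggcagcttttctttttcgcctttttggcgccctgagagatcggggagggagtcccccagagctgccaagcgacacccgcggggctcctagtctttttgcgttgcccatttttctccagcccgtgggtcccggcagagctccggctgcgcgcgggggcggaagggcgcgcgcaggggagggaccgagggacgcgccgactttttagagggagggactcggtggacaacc
Jun: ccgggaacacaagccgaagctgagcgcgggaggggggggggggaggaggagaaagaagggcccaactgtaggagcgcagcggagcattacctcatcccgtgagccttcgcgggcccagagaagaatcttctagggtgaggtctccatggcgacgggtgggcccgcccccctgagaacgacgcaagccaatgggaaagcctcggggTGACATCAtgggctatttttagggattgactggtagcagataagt
Fos: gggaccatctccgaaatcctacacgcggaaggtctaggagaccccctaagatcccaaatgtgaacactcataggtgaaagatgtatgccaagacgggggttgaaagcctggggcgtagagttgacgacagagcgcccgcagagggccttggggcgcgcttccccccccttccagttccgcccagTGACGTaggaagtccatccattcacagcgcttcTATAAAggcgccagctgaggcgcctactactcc
Ier3: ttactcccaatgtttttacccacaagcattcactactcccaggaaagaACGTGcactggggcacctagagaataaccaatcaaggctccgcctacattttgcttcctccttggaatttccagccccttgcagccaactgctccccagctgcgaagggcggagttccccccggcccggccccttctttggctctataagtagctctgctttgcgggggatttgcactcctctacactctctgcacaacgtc
A promoter row was found for 7 of the 10 genes, which were Jun, Junb, Jund, Fos, Fosb, Fosl2 and Ier3.

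Both strands of these windows were searched for 10 motifs, chosen after the expression values were seen. The Fosl2 window held none of them. The Jun window held TGACATCA, an AP-1-like element known from this promoter, at positions -45 to -38 before the start, a motif found in 2.93% of 32851 promoter windows. The Fos window held TGACGT, the core of the cAMP response element, at -66 to -61, and TATAAA at -33 to -28. These were found in 6.47% and 12.4% of windows. The Ier3 window held ACGTG, the core of the hypoxia response element, at -202 to -198, and the Jund window held it at 2 places on the minus strand. This motif was found in 16.6% of windows. The AP-1 site TGACTCA was in 4.46% of windows and in none of the 7 windows of these genes. The same held for TGACGTCA, which contains TGACGT (1.55% of windows), TGATGNAA (3.45%), CACGTG, which contains ACGTG (6.02%), TGACNNNGC (10.2%) and the CArG box bound by SRF (1.47%). A match describes letters in a window and is not evidence of binding. Only the 250 bases before the start were searched, and Egr1, Fosl1 and Myc were not searched. A motif absent from a window may therefore lie elsewhere near the gene.

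Among the Jun genes, values were slightly higher in LCM and none passed. Jun, whose protein is the classic partner of Fos, had log2 values of 9.43, 9.39 and 9.41 in LCM arrays and 9.25, 9.31 and 9.16 in control arrays (row 6923411). The LCM values were tightly grouped just above the highest control. The log2 fold change was 0.17 (95% interval 0.00 to 0.34, adjusted p = 0.246 from limma), and without control replicate 2 it was 0.21 (adjusted p = 0.0951). Jund, known for steady expression in many cell types, had log2 values of 9.22, 9.29 and 9.41 in LCM arrays and 9.17, 9.20 and 8.99 in control arrays (row 6977027). Its lowest LCM value lay just above its highest control value. Its log2 fold change was 0.19 (95% interval -0.03 to 0.40, adjusted p = 0.311 from limma). Junb, a Jun protein that can restrain Jun, had log2 values of 7.05, 7.25 and 7.47 in LCM arrays and 7.04, 7.06 and 7.15 in control arrays (row 6983894). The groups overlapped, and the LCM arrays spread more widely than the controls (SD 0.21 and 0.06, n = 3 each). Its log2 fold change was 0.17 (95% interval -0.09 to 0.43, adjusted p = 0.450 from limma).

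Neither Fos nor Fosl1, the other Fos genes measured, passed. Fos, the first Fos gene to respond to serum, had log2 values of 6.91, 7.09 and 6.91 in LCM arrays and 7.01, 6.92 and 6.79 in control arrays (row 6796691). The groups overlapped, with a log2 fold change of 0.06 (95% interval -0.15 to 0.27, adjusted p = 0.754 from limma). The upper bound corresponds to a rise of 1.21-fold. Fosl1, which encodes Fra-1, a close relative of Fra-2, had log2 values of 8.33, 8.47 and 8.36 in LCM arrays and 8.58, 8.57 and 8.59 in control arrays (row 6867755). All LCM values were below the controls, and the controls differed by little (SD 0.08 in LCM and 0.01 in control, n = 3 each). Its log2 fold change was -0.19 (95% interval -0.36 to -0.02, adjusted p = 0.203 from limma), so it did not pass. The study itself listed Jun and Fosl1 among genes that it selected on these arrays, so their direction here is not independent evidence.

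**Figure D2:**
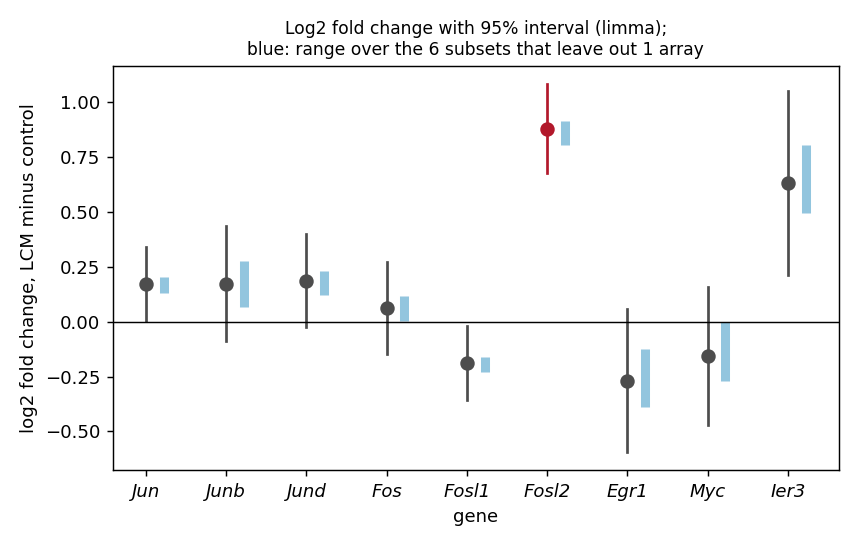
Log2 fold change (y axis, LCM minus control) of each gene (x axis), with the 95% interval from limma as a line and the range over the 6 subsets that leave out 1 array as a blue bar. Fosl2 (red), at 0.88, passed, whereas the intervals of Junb, Jund, Fos, Egr1 and Myc span 0.

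Within each array, Fosl2 was set against each other AP-1 gene, a comparison chosen after the values were seen. A shift common to a whole array cancels in such a difference, and its size between different genes on an array carries no meaning, so the groups are compared. Fosl2 minus Jun was 0.54, 0.58 and 0.78 in LCM arrays and -0.05, -0.21 and 0.03 in control arrays on the log2 scale. Fosl2 minus Fosl1 was 1.64, 1.49 and 1.83 in LCM arrays and 0.62, 0.53 and 0.60 in control arrays. The LCM arrays were above the control arrays in all 5 such comparisons, without overlap. All 5 use the same Fosl2 values, so they are not independent of each other or of the rise of Fosl2. The change between groups was 0.71 against Jun, 0.71 against Junb, 0.69 against Jund, 0.82 against Fos and 1.07 against Fosl1. Each had a two-sided p of 0.1 in an exact permutation test, the smallest that 3 against 3 arrays can give.

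**Figure D3:**
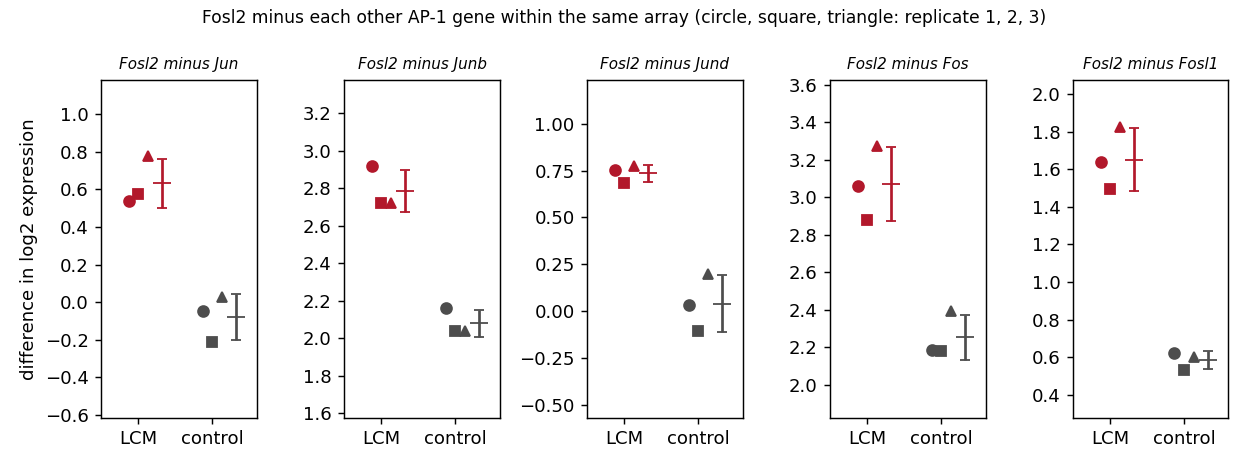
Difference in log2 expression between Fosl2 and each other AP-1 gene within an array (y axis) in LCM and control arrays, with mean and SD beside the points. LCM arrays lie above control arrays in each panel, by 0.69 for Jund to 1.07 for Fosl1.

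The 3 members outside AP-1 did not pass either. Ier3, which encodes a short-lived protein that affects cell survival and is not a transcription factor, had log2 values of 8.79, 9.00 and 9.25 in LCM arrays and 8.72, 8.10 and 8.31 in control arrays (row 6850191). Its LCM values lay above its controls, but the lowest LCM value and the highest control value differed by little. The log2 fold change was 0.63 (standard error 0.18, 95% interval 0.22 to 1.05, adjusted p = 0.103 from limma). Control replicate 2 was the lowest control, and without it the log2 fold change was 0.50 (adjusted p = 0.125). Egr1, a zinc finger factor induced by serum through SRF, had log2 values of 8.05, 7.85 and 7.93 in LCM arrays and 8.16, 8.50 and 7.97 in control arrays (row 6859972). The groups overlapped, and control replicate 2 was the highest of all arrays. Its log2 fold change was -0.27 (95% interval -0.59 to 0.06, adjusted p = 0.341 from limma) and -0.12 without that array. Myc, which drives growth and ribosome production, had log2 values of 9.43, 9.53 and 9.48 in LCM arrays and 9.55, 9.94 and 9.41 in control arrays (row 6830927). The LCM arrays lay close together between the lowest and the middle control, and control replicate 2 was the highest. Its log2 fold change was -0.16 (95% interval -0.47 to 0.16, adjusted p = 0.585 from limma). Without control replicate 2 it was -0.003 (adjusted p = 0.984).

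The genes whose centred log2 values were closest to those of Fosl2 over the 6 arrays were Car12, Hilpda and Atf3, with root mean square differences of 0.04, 0.05 and 0.05. Car12, a membrane-bound carbonic anhydrase, had log2 values of 6.93, 6.95 and 7.05 in LCM arrays and 6.11, 6.03 and 6.09 in control arrays. Hilpda, a lipid droplet protein known from hypoxia, had 8.95, 8.95 and 9.21 in LCM arrays and 8.16, 8.01 and 8.25 in control arrays. Atf3, a stress-induced factor that can pair with Jun, had 8.14, 8.19 and 8.35 in LCM arrays and 7.49, 7.25 and 7.32 in control arrays. As in Fosl2, LCM replicate 3 was the highest array in each of these genes. This likeness rests on 6 arrays in 2 groups. It describes how values differed between arrays, not the level of expression and not shared control.

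The bZIP proteins listed were ATF, BATF, JDP, MAF and CREB factors and the product of Ddit3, of which several pair with Jun or Fos. Of their 14 measured genes, 4 rose (Ddit3, Atf3, Atf4 and Maff) and 0 fell, with a median log2 fold change of 0.24. Of all genes, 2.29% rose and 1.97% fell. Ddit3, which encodes CHOP, had log2 values of 10.19, 10.11 and 10.49 in LCM arrays and 8.85, 8.95 and 8.85 in control arrays, 2.60-fold higher in LCM (adjusted p = 0.00378 from limma). Atf3 rose 1.83-fold (log2 fold change 0.87, adjusted p = 0.00738) and Atf4, a factor of the amino acid response, 1.72-fold (adjusted p = 0.00732). Maff, a small MAF protein, had log2 values of 8.28, 8.46 and 8.61 in LCM arrays and 7.91, 7.51 and 7.93 in control arrays (log2 fold change 0.67, adjusted p = 0.0448 from limma). Control replicate 2 was the lowest in Maff, which passed in 1 of the 6 subsets that lack an array, and its adjusted p was 0.0646 once arrays shared a median. Ddit3 and Atf3 passed in all 6 subsets and Atf4 in 5. Without LCM replicate 3, 2 genes of this list rose. The study selected Ddit3, Atf4 and Maff on these arrays as well.

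Among 36 other immediate early genes, 1 rose and 1 fell, beside 2.29% and 1.97% of all genes, and the median log2 fold change was -0.02. Dusp1, a phosphatase that switches off MAP kinases, had log2 values of 8.89, 8.91 and 8.93 in LCM arrays and 9.40, 9.56 and 9.39 in control arrays. Its expression fell (log2 fold change -0.54, adjusted p = 0.0132 from limma), and all LCM values were well below the controls. Sik1, a kinase induced by cAMP, had log2 values of 10.94, 10.88 and 10.98 in LCM arrays and 10.50, 10.45 and 10.55 in control arrays (log2 fold change 0.43, adjusted p = 0.0203). Dusp6 and Ier2 did not pass, with log2 fold changes of -0.35 (adjusted p = 0.0859) and 0.32 (adjusted p = 0.105). Dusp1 passed in 3 and Sik1 in 2 of the 6 subsets with an array removed. Without control replicate 2, 4 genes of the list rose and 3 fell, beside 680 and 652 of all 14860 genes. Without LCM replicate 1, 2 or 3 no gene of this list passed, and without control replicate 1 only Dusp1 did.

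Of 9 genes that regulate EGR factors or SRF, 0 passed, and 0 had an unadjusted p under 0.05 from limma. When control replicate 2 was removed, 1 of them rose, beside 680 of all 14860 genes. With all arrays, 2.29% of all genes rose and 1.97% fell. Nab2, a corepressor that Egr1 induces, had a log2 fold change of 0.20, and the SRF cofactors Elk4, Elk3 and Elk1 had -0.21, -0.21 and -0.26. In the MYC network of 12 genes, 1 rose, Mxi1, whose protein competes with MYC for MAX. Mxi1 had log2 values of 8.72, 8.69 and 8.91 in LCM arrays and 8.20, 8.27 and 8.20 in control arrays (log2 fold change 0.55, adjusted p = 0.0169 from limma). Of the 6 subsets with an array removed, it passed in 1, that without control replicate 2. Mxd1, Mnt and Mlx had log2 fold changes of 0.23, 0.19 and -0.14 and did not pass. Of 15 measured kinases of the ERK, JNK and p38 cascades, 1 rose, Map2k1, which activates ERK. Its log2 values were 11.18, 11.22 and 11.10 in LCM arrays and 10.69, 10.63 and 10.74 in control arrays (log2 fold change 0.48, adjusted p = 0.0165 from limma), and it passed without control replicate 2 or 3 and in no other subset. Mapk7, Map2k6 and Rps6ka3 had log2 fold changes of 0.34, -0.58 and -0.31 and did not pass. Map2k1 and Mapk7 were also among the genes that the study selected on these arrays, and so give no independent evidence of a direction.

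Of 21 measured genes with well known AP-1 sites, 4 rose and 0 fell, with a median log2 fold change of 0.08. These were Hmox1, Nqo1, Sqstm1 and Mmp13. Hmox1, Nqo1 and Sqstm1 are also textbook targets of Nrf2, and the study selected them on these arrays. Mmp13, a collagenase, was dim, with log2 values of 6.35, 6.30 and 6.23 in LCM arrays and 5.64, 5.84 and 5.65 in control arrays (log2 fold change 0.59, adjusted p = 0.0139 from limma), and passed in 2 of the 6 subsets. Without LCM replicate 1, 2 or 3 or control replicate 1, 1 gene of this list rose. Of 19 measured genes that MYC is known to act on, 3 rose and 0 fell, beside the same shares of all genes. Gadd45a, a stress gene that MYC represses, had log2 values of 10.78, 10.81 and 10.85 in LCM arrays and 9.95, 9.79 and 9.88 in control arrays (log2 fold change 0.94, adjusted p = 0.00378 from limma). Cdkn1a, the cell cycle inhibitor p21 that MYC also represses, and Shmt2, a one-carbon enzyme that MYC raises, had log2 fold changes of 0.50 and 0.39. Both passed only without control replicate 2 among the 6 subsets, while Gadd45a passed in all. Shmt2 had an adjusted p of 0.0678 from limma once arrays shared a median. Polr1b, a subunit of RNA polymerase I, had a log2 fold change of -0.22 and did not pass.

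Over these 7 lists, 14 of 124 genes rose (11.3%) and 1 fell (0.806%), with the members of the family left out, against 2.29% and 1.97% of all genes, and their median log2 fold change was 0.01. These counts moved with single arrays, from 4 that rose without LCM replicate 3 and 5 without LCM replicate 1 or 2 or control replicate 1 to 18 without control replicate 2. The last of these subsets gave 4 that fell, and the subsets that lack an LCM array gave 0. Earlier results from these arrays were known when the lists were chosen. Of the genes that rose, the study had itself listed Ddit3, Atf4, Maff, Map2k1, Hmox1, Nqo1 and Sqstm1 from these arrays. The share that rose is therefore not independent evidence that these lists respond more than other genes. Markers of other cell types were read for the same arrays. Of 6 B cell leukemia markers, 0 passed, with a summed linear signal of 2670 to 3031 in LCM arrays and 2933 to 3541 in control arrays, most of it from Ebf1 (log2 values of 11.19 to 11.39 in LCM arrays and 11.32 to 11.66 in control arrays), which adipocytes also express. Ptprc, a defining marker of blood cells, had log2 values of 4.22 to 4.36 in LCM arrays and 4.28 to 4.32 in control arrays, below the lower quartile of every array (5.99 to 6.04). Of 6 macrophage markers, Cd68 rose (log2 fold change 0.44, adjusted p = 0.0446 from limma, or 0.0640 once arrays shared a median), and Adgre1, a defining marker, was dim at 4.75 to 4.85 in LCM arrays and 4.83 to 4.92 in control arrays. The macrophage sum was 553 to 580 in LCM arrays and 476 to 538 in control arrays. Of the 6 markers, 3 were higher in LCM, and their median log2 fold change was 0.01. Cd68 was the brightest of them and rose most. Itgam, Adgre1 and Cd14 had log2 fold changes of -0.08, -0.06 and 0.07. Of 9 pre-adipocyte and fibroblast markers, 0 passed, with a sum of 36328 to 39519 in LCM arrays and 31737 to 37028 in control arrays. Bright genes weigh most in such a sum. The mean log2 value of the 9 was 10.74 to 10.92 in LCM arrays and 10.83 to 10.95 in control arrays, and 5 were higher in LCM. Pdgfra, Cd34 and S100a4 had log2 fold changes of -0.42, -0.22 and -0.42, and Fn1 had 0.16. What part the adipocyte and macrophage markers have in the result for Fosl2 was not tested.

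**Figure D4:**
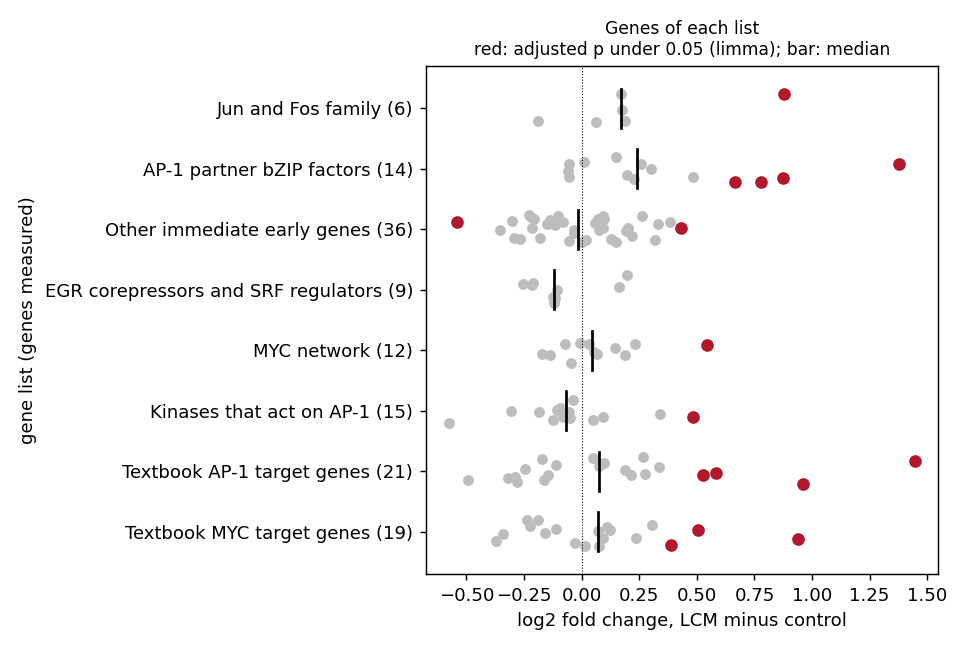
Log2 fold change (x axis, LCM minus control) of each measured gene in 8 gene lists (y axis), in red where the adjusted p from limma was under 0.05, with a black bar at the median. The red points above 0.6 outside the target lists are Fosl2, Maff, Atf4, Atf3 and Ddit3, and Dusp1 is the red point below 0.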

How the data were processed

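Total RNA of 6 adipocyte cultures (3 in LCM, 3 in regular media) was hybridized to GeneChip Mouse Gene ST arrays. The deposited values are log2 expression that the authors made with RMA (background correction, quantile normalization, probe summary), 1 column per array; its version, settings, build and filters are not stated in what was read here. The deposited arrays did not share 1 distribution exactly, with medians of 7.66 to 7.68 in LCM and 7.60 to 7.66 in control.

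Rows were named through the platform annotation and checked by gene ID against the RefSeq table of GRCm38.p6. Of 23332 rows, 14996 named 1 gene, 1019 several and 7317 none. The row with the highest mean stood for each of 135 genes with several rows. LCM and control were compared over 14860 genes with limma 3.58.1 in R 4.3.3 (lmFit and eBayes, two-sided, no block), with Benjamini-Hochberg adjusted p-values and a threshold of 0.05. The statistics section of the methods gives paired t-tests for experiments in general and does not say what was used for the arrays. The procedure was tested on simulated data. The text names every member, up to 4 genes per list with the smallest adjusted p, those that passed, and the 3 genes closest to Fosl2 by the root mean square difference of centred log2 values. Alternatives were another choice of row, a filter on dim genes, 2 renormalizations, another prior, array weights and a block. Others were a paired t-test, an unpaired t-test and leaving out each array. Members and lists were chosen with earlier results of these data known. Promoter sequences are RefSeq's. Python 3.11.15, pandas 2.3.3, scipy 1.17.1 and matplotlib 3.10.9 were used.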

Additional observations from a re-analysis of the deposited data

How the results depend on the processing

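Fosl2 passed in 14 of 15 alternatives. It did not pass in the methods' t-test paired by replicate number (adjusted p = 0.314, 0 members rose), in which 0 genes of the lists and 0 of all genes passed in either direction. The other 8 members kept their direction and did not pass in any of the alternatives run. Without a single array, 1 member rose and 0 fell in every subset, 4 to 18 list genes rose and 0 to 4 fell, and 39 to 680 of all genes rose and 21 to 652 fell, the highest without control replicate 2.

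Same-numbered arrays did not deviate together (correlations of -0.234, 0.055 and 0.112 over genes, and 2 of 6 arrays closest to their own number), so the number was not used to pair them. With it as a block, 9 list genes rose, and 173 of all genes rose and 151 fell, against 14, 341 and 292 without it. The unpaired t-test gave 6 and 0 list genes and 104 and 66 of all genes. Array weights gave 5 list genes that fell and 889 and 975 of all genes. With each array centred on its median, 232 of all genes rose and 408 fell. The median fold change of all genes moved by under 0.1 on the log2 scale. With 3 arrays per group, the number of arrays limits what can be told apart.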
